A study of Mus musculus with 18 samples.

Results

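The genes described here carry natriuretic peptide and cyclic GMP (cGMP) signals: 7 genes (*Npr1*, *Npr2*, *Npr3*, *Gucy1a3*, *Gucy1b3*, *Prkg1* and *Pde5a*) of the 52093 gene symbols in the deposited expression files. They were chosen by name for their place in the pathway, with earlier results of these data known, and each has 1 transcript row. RNA was sequenced from 18 libraries of male wild-type C57BL/6 mice, aged 16 weeks, that had eaten a high-fat diet (HFD, 60% of calories from fat) for 12 weeks. There were 6 libraries of adipocytes isolated with collagenase from inguinal white adipose tissue (iWAT, a subcutaneous depot), 6 of adipocytes isolated in the same way from epididymal white adipose tissue (eWAT, a visceral depot) and 6 of whole brown adipose tissue (BAT). A treatment field of the labels gives regular chow for all 18, against their titles and the study's design, and they were taken as HFD samples. All groups share sex, diet and the lack of any transgene, so that the comparisons are between tissues, and mice on regular chow were not analysed here.

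Natriuretic peptides are hormones of the heart and vessel wall that also act on fat cells. NPR1 binds atrial and B-type natriuretic peptides and NPR2 binds C-type natriuretic peptide; both are cell surface receptors whose inner part is a guanylyl cyclase, which makes cGMP from GTP. NPR3, the clearance receptor, binds all these peptides, takes them into the cell for breakdown and has no cyclase. A second source of cGMP is soluble guanylyl cyclase, a dimer of an alpha subunit (*Gucy1a3*, now named *Gucy1a1*) and a beta subunit (*Gucy1b3*, now *Gucy1b1*) that nitric oxide switches on. cGMP activates the protein kinase coded by *Prkg1*, which in fat cells is known to promote lipolysis and, in brown fat, the thermogenic programme, and PDE5A is a phosphodiesterase that breaks cGMP down. In vessel walls the same pathway relaxes smooth muscle, and vascular cells are known to express its genes.

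In the mm9 (NCBIM37) build of the files, *Npr1* (Entrez gene 18160) lies at chr3:90254513-90269788 on the minus strand and *Npr2* (230103) at chr4:43644807-43664172 on the plus strand. *Npr3* (18162) lies at chr15:11769651-11837042, minus strand. The genes of soluble guanylyl cyclase are neighbours on the minus strand of chromosome 3, *Gucy1b3* (54195) at chr3:81835926-81878633 and *Gucy1a3* (60596) at chr3:81896349-81949799, with a gap of 17.7 kb. *Prkg1* (19091) spans chr19:30638979-31839523 on the minus strand, and *Pde5a* (242202) lies at chr3:122432076-122562292 on the plus strand. The sources used here do not state that counting used strand, so reads of a gene and of an overlapping transcript cannot be told apart. Rows that touch exons of *Npr1* held 10.9 to 16.1% as many reads as *Npr1* itself, those at *Npr2* 4.71 to 8.75%, the row at *Npr3* 0.689 to 2.08%, the row at *Pde5a* 0 to 2.30% and the row at *Prkg1* 20.97 to 48%. The cyclase subunit genes have no overlapping row.

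The 250 bases just upstream of the annotated 5′ end of 4 of the genes are shown here: the pair of neighbouring cyclase subunits, whose levels moved together, and the receptor pair *Npr1* and *Npr3*, whose levels parted between tissues. They were read from the NCBIM37 genome at the protein-coding transcript starts of GENCODE vM1, on the strand of each gene, 5′ to 3′. Capitals mark matches on either strand to GGGCGG (the GC box) or CCAAT (the CCAAT box); TATAAA (the TATA box) was searched too. These words do not overlap each other.
Gucy1a3, chr3:81949800-81950049, minus strand: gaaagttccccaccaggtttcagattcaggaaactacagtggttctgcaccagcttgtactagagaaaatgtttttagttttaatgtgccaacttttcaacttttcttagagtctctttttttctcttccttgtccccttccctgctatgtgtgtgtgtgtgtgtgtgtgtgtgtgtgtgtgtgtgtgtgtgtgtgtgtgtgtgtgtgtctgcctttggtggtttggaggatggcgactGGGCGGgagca
Gucy1b3, chr3:81878634-81878883, minus strand: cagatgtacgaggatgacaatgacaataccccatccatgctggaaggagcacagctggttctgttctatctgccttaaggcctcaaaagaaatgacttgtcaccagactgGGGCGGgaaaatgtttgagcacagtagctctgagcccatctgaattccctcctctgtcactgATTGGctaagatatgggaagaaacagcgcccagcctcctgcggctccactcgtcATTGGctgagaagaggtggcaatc
Npr1, chr3:90269789-90270038, minus strand: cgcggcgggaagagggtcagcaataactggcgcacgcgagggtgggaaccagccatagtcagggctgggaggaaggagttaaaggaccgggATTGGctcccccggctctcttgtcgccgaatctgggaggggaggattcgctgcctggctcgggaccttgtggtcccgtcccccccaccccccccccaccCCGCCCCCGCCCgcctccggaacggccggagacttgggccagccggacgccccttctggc
Npr3, chr15:11835430-11835679, minus strand: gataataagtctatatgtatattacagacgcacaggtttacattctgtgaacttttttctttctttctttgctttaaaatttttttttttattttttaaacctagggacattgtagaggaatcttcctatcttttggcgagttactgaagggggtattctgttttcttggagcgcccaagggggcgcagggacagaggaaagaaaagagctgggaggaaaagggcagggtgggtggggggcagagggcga
The *Npr1* sequence was 70.4% G and C and held 2 matches to GGGCGG and 1 to CCAAT, whereas the *Npr3* sequence was 42.4% G and C and held neither word. The *Gucy1a3* and *Gucy1b3* sequences each held 1 match to GGGCGG, and that of *Gucy1b3* also held 2 to CCAAT. Among the 250 bases upstream of all 22372 protein-coding genes read in this way, 40.1% held GGGCGG, 35.0% held CCAAT and 12.3% held TATAAA. Their median G and C content was 54.4%. Of the 7 genes, 4 held GGGCGG, 2 held CCAAT and 0 held TATAAA. The deposited *Npr3* row starts further upstream, at position 11837042, than the GENCODE start used for its sequence. The *Npr3* sequence shown therefore lies within the span of the row that was counted and not upstream of it.

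Reads counted on the rows numbered 24655056 to 42518483 per library. Adipocyte markers (*Adipoq*, *Plin1* and 5 others) had more than 3 reads in all 18 libraries, and the brown fat marker *Ucp1* had a mean ± SD of 1858 ± 237 RPKM (reads scaled for transcript length and for the total of the library) in BAT, against 2.26 ± 0.592 in the iWAT and 0.261 ± 0.0844 in the eWAT libraries (n = 6 each). The isolated adipocytes also held transcripts of other cells. Summed RPKM of 7 macrophage markers was 2605 to 4186 in the eWAT, 460 to 909 in the iWAT and 25.4 to 50.6 in the BAT libraries. The 10 rows with the most reads held 43.6 to 54.3% of the reads in BAT, but 14.1 to 20.5% in the iWAT and 9.94 to 13.01% in the eWAT libraries, which leaves a smaller share of the total to all other genes in BAT. TMM scaling, which sets most genes level between libraries, was used in all tests across genes. Without it, the median log2 difference of all genes was 0.87 for iWAT adipocytes against BAT and 0.89 for eWAT adipocytes against BAT, in place of 0.01 and -0.02, and differences from BAT given here are relative to that median. BAT was sequenced in other lanes than the white depots and as whole tissue, so that tissue, preparation and lane cannot be told apart there.

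The clearance receptor was by far the most abundant transcript of the 7 in all tissues. *Npr3* was at 131 to 196 RPKM in the iWAT libraries (median 150.0), at 22.9 to 80.8 in the eWAT libraries (median 68.6) and at 29.3 to 50.4 in the BAT libraries (median 35.9). Means ± SD were 156 ± 22.2, 58.4 ± 25.7 and 37.1 ± 7.96 RPKM (n = 6 each). All 6 iWAT libraries lay above all eWAT and BAT libraries, while the eWAT libraries spread widely: samples 1 and 3, at 30.5 and 22.9 RPKM, lay in or below the BAT range and the other 4, at 61.2 to 80.8, lay above it. The same 2 eWAT libraries had the lowest sums of adipocyte markers of that depot, 3490 and 2552 RPKM against 5194 to 7948 in the others; the part of this in the *Npr3* values was not tested. In bulk samples such as these, fewer cells of a type and less RNA per cell cannot be told apart.

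The cyclase receptors were expressed at a lower level. *Npr1* was at 4.41 to 12.3 RPKM in the iWAT libraries (median 7.18; mean ± SD 7.83 ± 3.53), at 1.89 to 4.21 in the eWAT libraries (median 2.86; 2.95 ± 0.906) and at 7.65 to 12.3 in the BAT libraries (median 10.4; 10.5 ± 1.65). Every iWAT and every BAT library lay above every eWAT library, and the iWAT and BAT libraries overlapped. *Npr2* was at 5.33 to 9.10 RPKM in the iWAT libraries (median 6.58; 6.94 ± 1.62), at 1.66 to 3.81 in the eWAT libraries (median 2.68; 2.74 ± 0.763) and at 4.04 to 5.42 in the BAT libraries (median 4.81; 4.75 ± 0.599). eWAT adipocytes were again the lowest, with no overlap with the other tissues.

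The subunits of soluble guanylyl cyclase were close to each other in every tissue. *Gucy1a3* was at 2.30 to 7.13 RPKM in the iWAT libraries (median 3.56), at 0.768 to 1.47 in the eWAT libraries (median 1.03) and at 0.926 to 1.48 in the BAT libraries (median 1.32). For *Gucy1b3*, the ranges were 1.90 to 6.78 (median 3.25), 0.756 to 1.33 (median 0.998) and 1.10 to 1.76 RPKM (median 1.49). For both subunits, all iWAT libraries lay above all others, and the eWAT and BAT libraries overlapped.

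The kinase and the phosphodiesterase were the least abundant. *Prkg1* was at 0.166 to 0.684 RPKM in the iWAT libraries (median 0.320), at 0.101 to 0.146 in the eWAT libraries (median 0.139) and at 0.233 to 0.372 in the BAT libraries (median 0.275), with 39 to 268 reads per library behind these values. *Pde5a* was at 0.343 to 0.817 RPKM in the iWAT libraries (median 0.457), at 0.496 to 0.610 in the eWAT libraries (median 0.571) and at 0.267 to 0.431 in the BAT libraries (median 0.362), from 75 to 227 reads. Of these, *Prkg1* kept the white depots apart, whereas the iWAT libraries spread over the whole eWAT range for *Pde5a*.

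**Figure D1:**
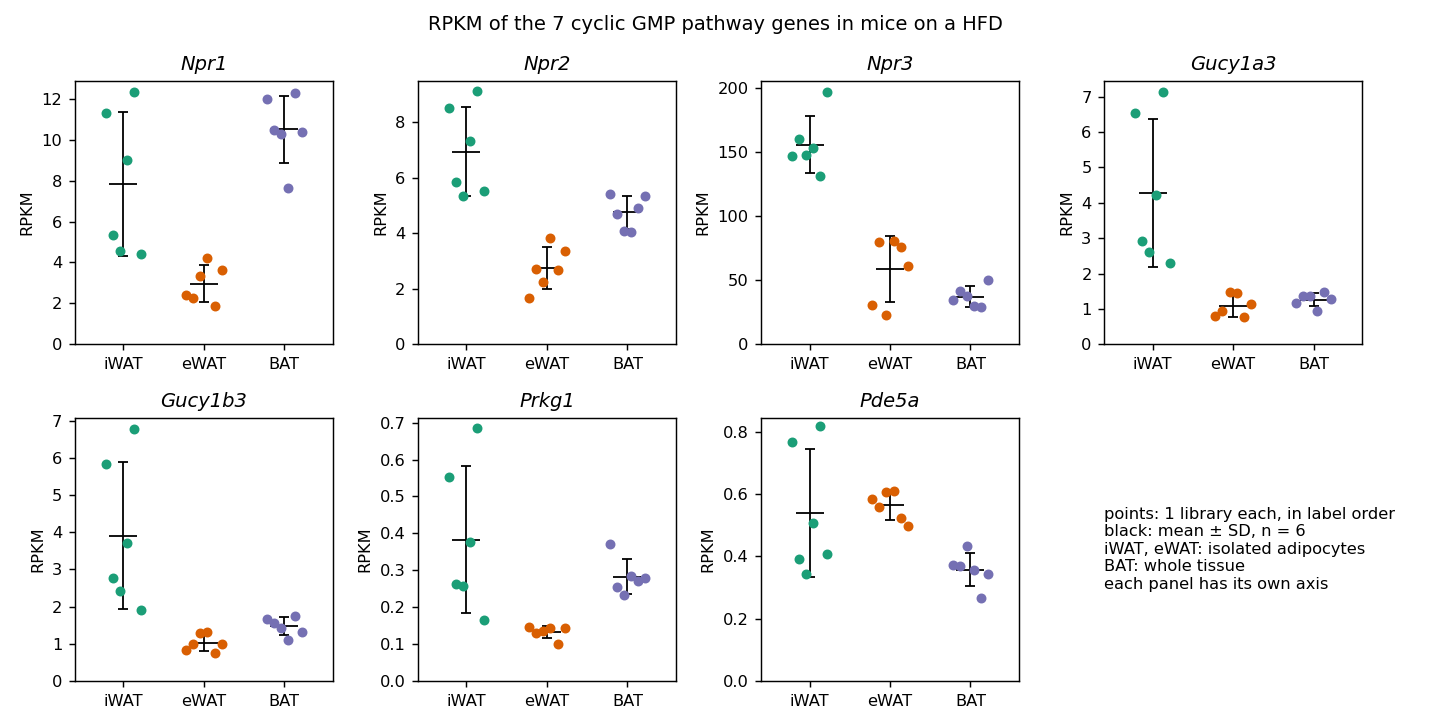
RPKM (linear axes from 0, 1 scale per panel) of the 7 genes in each of the 6 libraries of iWAT adipocytes, eWAT adipocytes and BAT; points are libraries, and bars give the mean ± SD. *Npr3* sits between 131 and 196 RPKM in iWAT adipocytes, above all other libraries, and *Pde5a* is the gene whose iWAT and eWAT points overlap.

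Within a tissue the order of levels, per transcript length, was the same in both white depots: *Npr3*, *Npr1*, *Npr2*, *Gucy1a3*, *Gucy1b3*, *Pde5a*, *Prkg1*. Mean RPKM of *Npr3* was 19.9 times that of *Npr1* in the former depot and 19.8 times in the latter, without overlap. In BAT, it was 3.53 times that of *Npr1*, again without overlap, and *Gucy1b3* stood above *Gucy1a3* in all 6 libraries. Several neighbours in this order did not differ beyond their spread: *Npr1* was above *Npr2* in 3 of 6 iWAT and 4 of 6 eWAT libraries, and *Gucy1a3* above *Gucy1b3* in 4 of 6 eWAT libraries. In BAT, by contrast, the ranges of *Npr1* and *Npr2* did not overlap (2.21 times). *Prkg1* was below *Pde5a* in all white libraries but in 5 of 6 BAT libraries. With a mean of 1 RPKM as the cutoff, 5 of the 7 genes reached it in each tissue, and *Prkg1* and *Pde5a* did so in none. In eWAT adipocytes, *Gucy1a3* and *Gucy1b3* were close to this cutoff (means of 1.09 and 1.03 RPKM), and 3 of the 7 genes reached it in every sample.

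Almost the whole set was higher in iWAT than in eWAT adipocytes. Of the 7 genes, 6 were higher in iWAT adipocytes and 0 were lower (edgeR quasi-likelihood test, Benjamini-Hochberg adjusted p under 0.05); over all 19623 genes tested, 68.6% passed the same test, 34.1% as higher in iWAT adipocytes and 34.5% as lower. The median log2 fold change of the 7 genes was 1.42, against 0.00 for all genes. The ranges of RPKM did not overlap for 6 of the 7 genes, and for 44.0% of all genes. Tissue differences were the rule among all genes, and the 6 of 7 in 1 direction are to be read against 34.1%. The 7 genes were chosen with earlier results of these data known, so this count is a description and not an independent test.

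The subunits of soluble guanylyl cyclase had the largest fold changes of the 7 genes between the white depots, with 95% intervals that overlap those of all others but *Pde5a*. The log2 fold change of iWAT over eWAT adipocytes was 1.97 ± 0.29 (SE; adjusted p = 5.74e-05, edgeR) for *Gucy1a3* and 1.92 ± 0.29 (adjusted p = 6.46e-05) for *Gucy1b3*, that is 3.92-fold and 3.77-fold. The receptors differed by similar amounts among themselves: 1.40 ± 0.28 (adjusted p = 0.000633, edgeR) for *Npr1*, 1.34 ± 0.19 (4.20e-05) for *Npr2* and 1.42 ± 0.29 (0.000745) for *Npr3*. *Prkg1* was 2.86-fold higher in iWAT adipocytes (log2 fold change 1.52 ± 0.28, adjusted p = 0.000367, edgeR), and 1.48 (adjusted p = 0.000363) once reads of the overlapping row were taken off. For *Pde5a* the log2 difference was -0.07 ± 0.19 (adjusted p = 0.766, edgeR), with a 95% interval of -0.43 to 0.30.

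Both white depots were sequenced in lanes 1 and 2, which allowed the comparison within each lane. In lane 1 alone (2 iWAT and 4 eWAT libraries), the log2 fold changes were 1.44 for *Npr1*, 1.28 for *Npr2*, 1.98 for *Gucy1a3*, 1.92 for *Gucy1b3* and 1.67 for *Prkg1*, all past the threshold, and 1.19 for *Npr3*, which was not (adjusted p = 0.0773, edgeR). In lane 2 alone (4 iWAT and 2 eWAT libraries), they were 1.39, 1.504, 2.13 and 2.08 for *Npr1*, *Npr2*, *Gucy1a3* and *Gucy1b3*, 1.85 for *Npr3*, and 1.38 for *Prkg1* (adjusted p = 0.0511, edgeR). The 6 genes kept their direction in both lanes.

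Markers of vascular and of several other cells moved with these genes. Of 7 endothelial markers (*Cdh5*, *Pecam1* and others), 7 were higher in iWAT than in eWAT adipocytes, with a median log2 fold change of 1.63, as were 7 of 7 pericyte markers (*Rgs5*, *Pdgfrb* and others; median 1.77) and 7 of 7 adipocyte markers (median 1.47). Summed RPKM of the endothelial list was 195 to 556 in iWAT and 64.9 to 158 in eWAT adipocytes, that of the pericyte list 90.6 to 283 and 28.2 to 64.9, and that of the 7 vascular smooth muscle markers 15.4 to 38.2 and 8.92 to 19.6. All 7 endothelial and all 7 pericyte markers had more than 3 reads in all 18 libraries. Of the markers tested, 4 of 5 for vascular smooth muscle (median 0.98), 3 of 3 for Schwann cells (median 3.63), 4 of 4 for skeletal muscle (median 4.21) and 2 of 3 for B cells (median 1.75) were also higher in iWAT adipocytes. So were 5 of 6 tested brown adipocyte markers (median 2.46) and 3 of 7 fibroblast and progenitor markers (0 lower, median 0.21). Macrophage markers went the other way, with 7 of 7 higher in the eWAT libraries (median log2 fold change -2.20), as did 3 of 4 tested mesothelial markers (median -5.85). The part of these other cells in the differences of the 7 genes was not tested.

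In iWAT adipocytes, the libraries that were high in vascular markers were also high in these genes, *Npr3* excepted. Samples 5, 1 and 4 held the highest 3 values for 6 of the 7 genes, and they also ranked 1, 2 and 3 on the endothelial, pericyte and smooth muscle sums. *Gucy1b3* was at 6.78, 5.85 and 3.72 RPKM in these 3 libraries and at 1.90 to 2.78 in the other 3. Their endothelial sums were 556, 441 and 347 RPKM, against 195 to 257. Schwann cell markers (10.5, 16.4 and 7.82 RPKM, against 5.88 to 7.48) and B cell markers (2.17, 1.78 and 1.27 RPKM, against 0.658 to 0.786) were also highest in these 3 libraries, and skeletal muscle markers (4.35, 12.5 and 14.6 RPKM, against 5.94 to 17.4) were not. *Npr3* ran the other way: it was highest in sample 16, at 196 RPKM, and lowest in sample 5, at 131. Sample 16 had the highest adipocyte sum (16150 RPKM) and the lowest sums of all 3 vascular lists, and sample 5 the lowest adipocyte sum (11480 RPKM). Coefficients of variation over the 6 iWAT libraries were 14.3% for *Npr3*, 23.3% for *Npr2*, 37.9% for *Pde5a* and 45.1 to 51.9% for *Npr1*, *Gucy1a3*, *Gucy1b3* and *Prkg1*.

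In eWAT adipocytes the pattern was looser. Sample 4 held the highest value of 5 of the 7 genes and the highest sum of the 3 vascular lists. It was also highest in fibroblast and progenitor (310 RPKM), brown adipocyte (17.8), mesothelial (4.96) and Schwann cell markers (0.956). It was not highest in adipocyte, platelet, skeletal muscle, B cell or T cell markers, and its macrophage sum (2605 RPKM) was the lowest of the depot. The part of these cells in its values was not tested. *Npr3* had the widest relative spread there (coefficient of variation 43.9%), and *Pde5a* (8.20%) and *Prkg1* (12.5%) the narrowest. In BAT, coefficients of variation of the 7 genes were between 12.6% and 21.5%, and no library held a top 3 value for more than 5 of them.

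**Figure D2:**
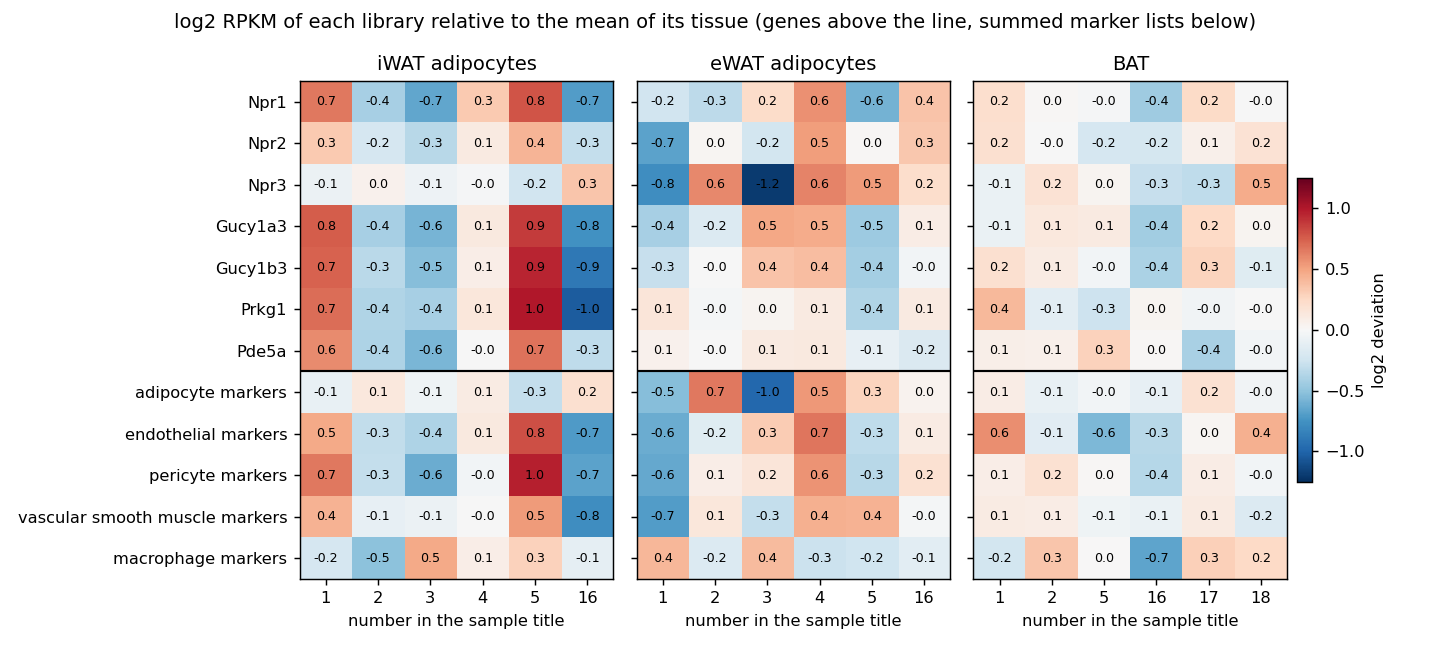
log2 RPKM of each library relative to the mean of its tissue, for the 7 genes (above the line) and for summed lists of marker genes (below it); red is above and blue below the mean, and columns carry the number in the sample title. In iWAT adipocytes, samples 1 and 5 are red for 6 of the 7 genes and for the vascular lists, and *Npr3* and the adipocyte list are not.

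Between iWAT adipocytes and BAT, the receptors parted. *Npr3* was 2.76-fold higher in iWAT adipocytes (log2 fold change 1.47 ± 0.15, adjusted p = 2.18e-07, edgeR), whereas *Npr1* was 2.06-fold higher in BAT (1.04 ± 0.22 on the log2 scale, adjusted p = 0.000421). *Gucy1a3* and *Gucy1b3* were higher in iWAT adipocytes, by 1.13 ± 0.23 (adjusted p = 0.000421, edgeR) and 0.79 ± 0.24 (0.00839). For *Npr2*, *Prkg1* and *Pde5a*, the log2 differences were -0.07 (95% interval -0.29 to 0.16), -0.19 (-0.70 to 0.32) and -0.03 (-0.42 to 0.37), and none passed the test. In total, 4 of the 7 genes passed, 3 as higher in iWAT adipocytes and 1 as higher in BAT; of all 19745 genes tested, 75.3% passed, 38.1% as higher in iWAT adipocytes and 37.2% as higher in BAT. The median log2 difference of the 7 genes was -0.03, against 0.01 for all genes. Unscaled RPKM ranges of the libraries did not overlap for 3 of the 7 genes (*Npr3* and both cyclase subunits), against 65.3% of all genes.

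These calls depend on the scaling. Without TMM, 6 of the 7 genes passed as higher in iWAT adipocytes and 0 as higher in BAT, and of all genes 13703 were higher and 3054 lower in iWAT adipocytes, against 7528 and 7336 with TMM. *Npr1* then lost its call (log2 difference -0.17, adjusted p = 0.504, edgeR), and *Npr2*, *Prkg1* and *Pde5a* turned to 0.80, 0.69 and 0.85. *Npr3*, *Gucy1a3* and *Gucy1b3* were higher in iWAT adipocytes under both scalings (2.32, 2.01 and 1.66 without TMM). With limma on RPKM, which has no TMM either, *Npr2* and *Pde5a* were also called as higher in iWAT adipocytes and *Npr1* was not called.

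Against eWAT adipocytes, BAT was the higher tissue. Of the 7 genes, 5 were higher and 0 lower in BAT, where 82.5% of all 20076 genes tested passed, 41.4% as higher in BAT and 41.1% as lower. *Npr1* was 5.34-fold higher in BAT (log2 fold change of eWAT adipocytes over BAT -2.42 ± 0.17, adjusted p = 2.65e-09, edgeR), *Prkg1* 3.19-fold (-1.68 ± 0.14, 2.14e-08) and *Npr2* 2.62-fold (-1.39 ± 0.15, 6.30e-07). Once reads of the overlapping row were taken off, *Prkg1* was at -1.44 (adjusted p = 8.62e-07, edgeR). The cyclase subunits were lower in eWAT adipocytes by smaller amounts, -0.81 ± 0.16 for *Gucy1a3* (adjusted p = 0.000246, edgeR) and -1.09 ± 0.14 for *Gucy1b3* (2.87e-06). *Npr3* and *Pde5a* did not pass, at 0.07 (95% interval -0.47 to 0.60) and 0.07 (-0.18 to 0.32). The median of the 7 genes was -1.09, against -0.02 for all genes. Unscaled RPKM ranges did not overlap for 4 of the 7 genes, against 68.4% of all genes: *Npr1*, *Npr2* and *Prkg1* were higher in all BAT libraries, and *Pde5a* in all eWAT libraries.

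Without TMM, 3 of the 7 genes passed as higher in BAT (*Npr1*, -1.51; *Prkg1*, -0.76; *Npr2*, -0.48) and 2 as higher in eWAT adipocytes (*Npr3*, 0.97; *Pde5a*, 0.99). The subunits then lost their calls, at 0.10 for *Gucy1a3* (adjusted p = 0.610, edgeR) and -0.19 for *Gucy1b3* (adjusted p = 0.284), and of all genes 12965 were higher and 4061 lower in eWAT adipocytes, against 8243 and 8318 with TMM. Of the vascular lists, 7 of 7 pericyte and 6 of 7 endothelial markers were also higher in BAT than in eWAT adipocytes, with median log2 fold changes of -1.65 and -1.46, while the medians for iWAT adipocytes over BAT were 0.09 and 0.11. Of 6 smooth muscle markers tested, 5 were higher in BAT than in eWAT adipocytes (median -2.16), and 1 was higher in iWAT adipocytes and 2 in BAT when these were compared (median -0.45). Markers of brown adipocytes (7 of 7, median -7.99), skeletal muscle (6 of 6, -7.16) and Schwann cells (4 of 4, -4.26) were also higher in BAT than in eWAT adipocytes. Macrophage markers (7 of 7, median 6.36) and 3 of 4 tested mesothelial markers (median 6.28) were higher in eWAT adipocytes. For iWAT adipocytes over BAT, other lists moved further than the vascular ones. Macrophage markers (7 of 7, median 3.95) and 5 of 7 adipocyte markers (1 lower, median 1.4) were higher in iWAT adipocytes. Markers of brown adipocytes (6 of 7, 1 the other way, median -6.82), skeletal muscle (6 of 6, -3.56) and Schwann cells (3 of 4, 1 the other way, -1.03) were higher in BAT. Whether any of these cells take part in the differences of the 7 genes was not tested. Summed skeletal muscle markers ranged from 1.54 to 109 RPKM among the BAT libraries; no call of the 7 genes changed when any BAT library was left out.

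**Figure D3:**
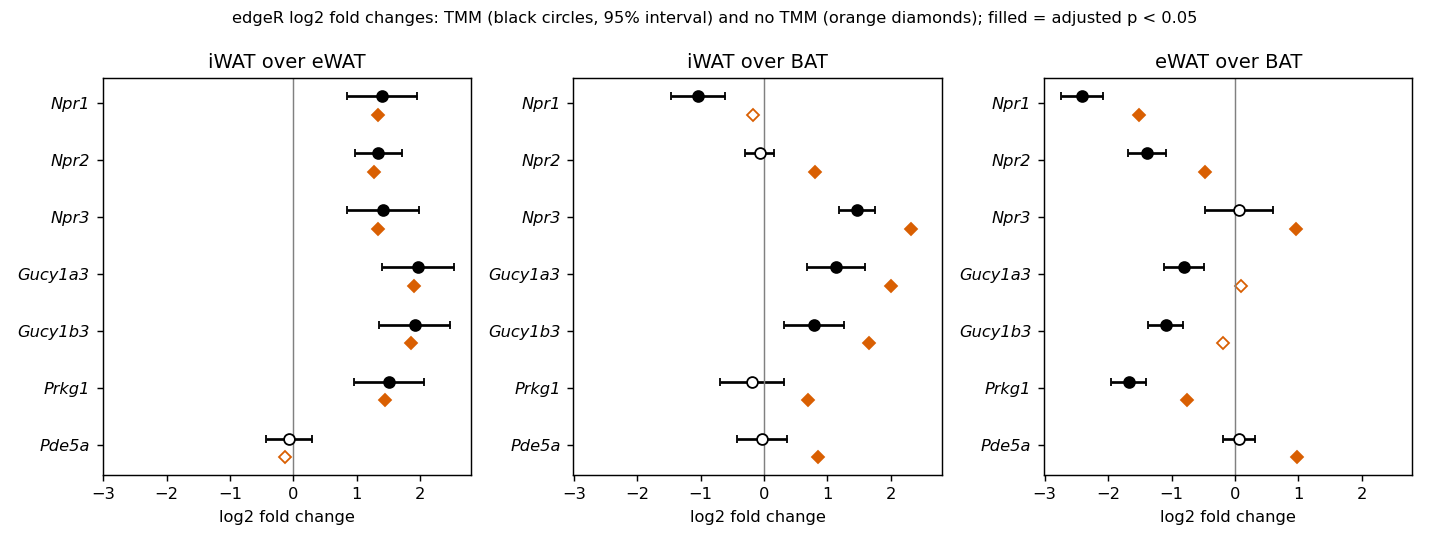
log2 fold changes of the 7 genes in the 3 comparisons, with TMM scaling (black circles, bars are 95% intervals) and without it (orange diamonds); filled symbols passed an adjusted p of 0.05. Between the white depots the scalings lie close together; against BAT, leaving TMM out moves all 7 genes to the right.

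A ratio of genes within a library does not depend on scaling, and by this measure BAT had more cyclase receptor transcript per clearance receptor transcript. The *Npr1*/*Npr3* ratio of RPKM was 0.0224 to 0.0945 in the iWAT libraries (median 0.0463), 0.0249 to 0.145 in the eWAT libraries (median 0.0557) and 0.206 to 0.419 in the BAT libraries (median 0.266). All BAT libraries lay above all white libraries. By the difference in mean log2 ratio, it was 6.15-fold higher in BAT than in iWAT adipocytes and 5.27-fold higher than in eWAT adipocytes (two-sided exact permutation tests over samples, p = 0.00216, the smallest that 6 against 6 can give; 0.0039 after Benjamini-Hochberg adjustment over 9 ratio tests). The white depots did not differ beyond their spread (1.17-fold, exact permutation p = 0.667): both receptors were higher in iWAT adipocytes, by like amounts.

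The *Npr2*/*Npr3* ratio followed the same order, with a mean ± SD of 0.0461 ± 0.0156 in the iWAT, 0.0539 ± 0.0236 in the eWAT and 0.132 ± 0.0266 in the BAT libraries. It was 2.95-fold higher in BAT than in iWAT adipocytes and 2.57-fold higher than in eWAT adipocytes, without overlap (exact permutation, adjusted p = 0.0039 for both), and the white depots overlapped (exact permutation p = 0.545). The highest eWAT value, 0.0984 in sample 3, stood apart from the other 5 (0.0339 to 0.0546).

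The subunits of soluble guanylyl cyclase were near parity, with a shift between white fat and BAT. The *Gucy1a3*/*Gucy1b3* ratio was 1.05 to 1.21 in the iWAT, 0.929 to 1.14 in the eWAT and 0.710 to 0.981 in the BAT libraries. The alpha subunit exceeded the beta subunit in all 6 iWAT libraries and fell short of it in all 6 BAT libraries, and the iWAT ratio was 1.28-fold that of BAT (exact permutation, adjusted p = 0.0039). The eWAT ratio was 1.204-fold that of BAT (exact permutation p = 0.013, adjusted p = 0.0195), with overlap, and iWAT and eWAT adipocytes did not differ beyond their spread (exact permutation p = 0.201).

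**Figure D4:**
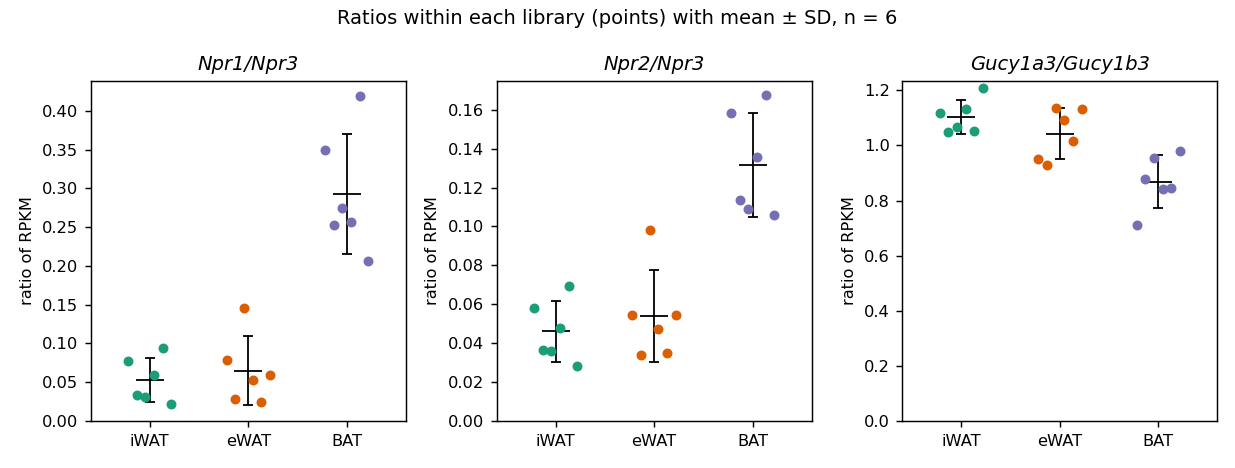
Ratios of RPKM within each library (points; axes from 0) with mean ± SD of the 6 libraries of a tissue. For *Npr1*/*Npr3* and *Npr2*/*Npr3* all BAT libraries lie above all white libraries, and for *Gucy1a3*/*Gucy1b3* all BAT libraries lie below 1.

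Across the 6 libraries of a tissue, the subunits rose and fell together in the white depots. On log2(RPKM + 0.1), Pearson's r between *Gucy1a3* and *Gucy1b3* was 0.995 in iWAT adipocytes (exact permutation p = 0.00278, adjusted over 3 tissues 0.00833; Spearman's rho 1, p = 0.00278). It was 0.969 in eWAT adipocytes (exact permutation p = 0.0167, adjusted 0.025; rho 0.886, p = 0.0333, adjusted 0.05) and 0.768 in BAT (p = 0.117; rho 0.657, p = 0.175). Without the 2 libraries farthest from the median of *Gucy1a3*, r was 0.974, 0.864 and -0.41; the 4 libraries left allow no test. In iWAT adipocytes the libraries high in both subunits were those high in vascular, Schwann cell and B cell markers. *Npr1*, *Npr2*, *Prkg1* and *Pde5a* were highest in the same libraries. Correlations of other gene pairs were not tested, so these values do not show whether the link is special to the subunits.

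Transcripts of the ligands themselves were at the limit of detection. *Nppa*, which codes for atrial natriuretic peptide, had 4 reads over the 6 iWAT libraries and 15 each over those of eWAT adipocytes and BAT, at most 5 in any library. *Nppb*, for B-type natriuretic peptide, had 1 read each in the white depots and 0 in BAT, where a count of 0 allows up to 0.167 RPKM in a library. *Nppc*, for C-type natriuretic peptide, had 8 reads over the iWAT libraries and 1 each in eWAT adipocytes and BAT. None of the 3 had enough reads for a test, and such limits cover counting error only.

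Of 56 other genes of the pathway, 34 were tested between the white depots and 29 of these passed (85.3%, against 68.6% of all genes), 21 as higher and 8 as lower in iWAT adipocytes. This list, too, was chosen with earlier results of these data known. The 5 largest differences were in *Ucp1*, which uncouples brown fat mitochondria (log2 fold change 3.09 ± 0.24), *Nos2*, the inducible nitric oxide synthase (2.21 ± 0.28), the cGMP-specific phosphodiesterase *Pde9a* (1.99 ± 0.33), *Gucy1a2*, another alpha subunit of soluble guanylyl cyclase (1.76 ± 0.33), and the calmodulin-dependent phosphodiesterase *Pde1a* (1.75 ± 0.24), all higher in iWAT adipocytes. Of the 3 nitric oxide synthases, 2 were higher and 0 lower in iWAT adipocytes. Of 10 tested genes listed by name as other phosphodiesterases of cGMP, 6 were higher and 3, *Pde6d* among them, lower there. Whether each product acts on cGMP was not tested. Of the 7 lipolytic and thermogenic genes downstream, 6 were higher in iWAT adipocytes and 1 was lower, where 34.1% of all genes tested were higher and 34.5% lower. *Lipe* and *Plin1* of this list were also used as adipocyte markers and *Ucp1* as a brown adipocyte marker. The part of cell makeup in these counts was not tested.

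In the comparison of iWAT adipocytes with BAT, 23 of 35 tested pathway genes passed (65.7%, against 75.3% of all genes), 10 as higher in iWAT adipocytes and 13 as higher in BAT. The largest differences were in *Ucp1* (-10.29 ± 0.22), *Pln*, which codes for phospholamban, a brake on the calcium pump of the sarcoplasmic reticulum (-3.63 ± 0.27), *Ppargc1a*, a coactivator of mitochondrial genes (-3.62 ± 0.16), and *Pde1c* (-2.50 ± 0.31), all higher in BAT, and in *Kcnma1*, a calcium-activated potassium channel (2.55 ± 0.24). Some of these rest on few reads: *Pln* had 2 to 7 and *Pde1c* 3 to 18 per iWAT library, and *Kcnma1* 4 to 15 per BAT library. Between eWAT adipocytes and BAT, 32 of 34 passed (94.1%, against 82.5% of all genes), 9 as higher in eWAT adipocytes and 23 as higher in BAT. The largest differences, all towards BAT, were in *Ucp1* (-13.35 ± 0.25), *Ppargc1a* (-5.30 ± 0.23), *Pln* (-3.79 ± 0.26), the phosphodiesterase *Pde10a* (-2.42 ± 0.10) and *Gtf2ird1*, a transcription factor (-2.08 ± 0.09). In the eWAT libraries, *Pln* had 2 to 7 and *Ucp1* 6 to 25 reads.

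Several other genes of the pathway were more abundant than *Pde5a*. Those named here were chosen after the values were seen and are not a ranking by level. *Pde6d* (means of 51.0, 77.5 and 17.3 RPKM in the iWAT, eWAT and BAT libraries), *Rgs2* (21.3, 43.8 and 14.5) and *Furin* (12.1, 21.8 and 7.32) exceeded *Nos3* in each tissue. These genes were lower in iWAT than in eWAT adipocytes (log2 fold changes -0.60, -1.025 and -0.84), unlike the genes that follow. *Mme*, which codes for neprilysin, a peptidase that degrades natriuretic peptides, was at 23.4 ± 3.13 RPKM in the iWAT, 7.48 ± 3.15 in the eWAT and 17.2 ± 3.52 in the BAT libraries. The cGMP-inhibited phosphodiesterase *Pde3b* was at 32.9 ± 4.66, 16.2 ± 5.42 and 27.4 ± 3.10 RPKM, and the cGMP-stimulated *Pde2a* at 24.7 ± 7.27, 11.2 ± 1.73 and 8.04 ± 0.736 RPKM. *Nos3*, the endothelial nitric oxide synthase, was at 10.3 ± 1.17, 3.52 ± 1.34 and 4.64 ± 1.08 RPKM, and was, like the cyclase subunits, highest in iWAT adipocytes, where it exceeded BAT by 0.55 ± 0.12 (log2, adjusted p = 0.00075, edgeR) and eWAT adipocytes by 1.56 ± 0.23 (adjusted p = 5.2e-05).

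Each of the 7 genes was set against about 13316 genes by the root mean square difference of centred log2(RPKM + 0.1) over the 18 libraries, in log2 units. The profiles closest to *Npr1* were those of *Als2cl* (0.213), *Mapk12* (0.228) and *Kank3* (0.230), and those closest to *Npr2* were *Lamb2* (0.117), *Rnf144a* (0.139) and *Dock9* (0.152). *Sntb1* (0.144), *Jph1* (0.186) and *9030224M15Rik* (0.196) were closest to *Npr3*. For *Gucy1a3*, the nearest were *Sncaip* (0.170), its partner *Gucy1b3* (0.179) and *Cyp4b1* (0.182), and for *Gucy1b3* they were *Gimap6* (0.148) and *Mmrn2* (0.159). For *Prkg1* they were *Pear1* (0.170), *Cyyr1* (0.178) and *Mllt4* (0.195), and for *Pde5a* *Kbtbd7* (0.168), *Xiap* (0.192) and *Sp100* (0.192). These values describe likeness over the same 18 libraries, which share depth and cell makeup.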

How the data were processed

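Libraries were made by the authors with a NEBNext Ultra kit and sequenced on an Illumina HiSeq instrument. The submitters' processing notes list cutadapt 1.16 and HISAT2 2.1.0, and reads were mapped to mm9; the counting program, annotation and strand setting are not given in the sources used here. The deposited files give a read count per transcript row (53445 rows) and an RPKM value that the authors derived from that count by length and library total alone. The total implied by RPKM was not the reads on the rows. It was below them in BAT (22935346 to 38571612, against 27402247 to 42518483). It was above them in the iWAT (27307031 to 31182273, against 26768529 to 30166441) and eWAT libraries (26526123 to 41145280, against 24655056 to 37438994). Unscaled RPKM of BAT is therefore raised relative to the white depots. Where a symbol had several rows, that of highest RPKM on average across the 18 samples stood for it. Groups are the tissues named in the labels, which do not say whether samples sharing a number come from 1 mouse; p-values measure only the spread between these libraries, which may in part be technical. Counts were compared between tissues with edgeR 4.0.16 (glmQLFit and glmQLFTest, TMM, mean count of 10 or more in the 12 samples, Benjamini-Hochberg adjustment over all genes tested, threshold 0.05) in R 4.3.3, each pair of tissues in its own fit. Fold changes carry the SE derived from the test statistic. The 95% intervals use this SE with a normal quantile, which makes them too narrow for groups of this size. Ratios of RPKM and correlations were tested by exact permutation over samples with scipy 1.17.1, two-sided. The 7 genes and the pathway and marker lists were chosen with earlier results of these data known. Pathway genes were named if among the 5 largest called changes of a comparison, and for each gene the 3 closest profiles, of which 1 is not reported here. The fit was tested on simulated data. Alternatives were DESeq2 1.42.0, limma 3.58.1 on log2(RPKM + 0.1) or log2(RPKM + 1), no TMM, no filter, lanes, a replicate block, all 18 samples in one fit, rows of a symbol summed, no mitochondrial rows, a minimum log2 fold change of 1 and each sample left out; subtracting reads of overlapping rows, and the 8 samples with a shared number, were added after the data were seen. Upstream sequences came from NCBIM37 and GENCODE vM1. Other tools were Python 3.11.15, numpy 2.4.6, pandas 2.3.3 and matplotlib 3.10.9.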

Additional observations from a re-analysis of the deposited data

Results flagged for a closer look

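Of 30 groups of 6 values that were tested for a sample far from the others, 2 held such a sample, where chance gives 1.5. *Prkg1* was at 0.1013 RPKM in sample 5 of eWAT adipocytes, below the other 5 (0.130 to 0.146 RPKM). The *Npr2*/*Npr3* ratio was 0.09835 in sample 3 of eWAT adipocytes, above the other 5 (0.0339 to 0.0546); this sample had the lowest *Npr3* and the lowest sum of adipocyte markers of its group.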

How the results depend on the processing

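Leaving out any sample left 6, 4 and 5 of the 7 genes called (iWAT over eWAT adipocytes, iWAT adipocytes over BAT, eWAT adipocytes over BAT). Signs turned only for differences that were not called: *Pde5a* ranged from -0.20 to 0.034, from -0.16 to 0.058 and from -0.031 to 0.13 in the 3 comparisons, *Npr3* between eWAT adipocytes and BAT from -0.040 to 0.24, and the log2 *Npr1*/*Npr3* ratio between the white depots from -0.45 to 0.063, positive only without eWAT sample 3. Without TMM, *Npr2*, *Prkg1* and *Pde5a* in iWAT adipocytes over BAT turned to 0.80, 0.69 and 0.85, and *Gucy1a3* in eWAT adipocytes over BAT to 0.10. With limma on RPKM, which is not scaled by TMM, the former 3 were 0.52, 0.24 and 0.43 (pseudocount 0.1) and 0.45, 0.10 and 0.17 (pseudocount 1), of which *Npr2* (adjusted p = 0.00348 and 0.00364) and *Pde5a* (0.044 and 0.0447) became called, so that 5 of the 7 genes were higher and 0 lower in iWAT adipocytes; *Npr1* was -0.53 and -0.47 and lost its call (adjusted p = 0.0609 and 0.0636), *Gucy1a3* in eWAT adipocytes over BAT was -0.23 and -0.13 (adjusted p = 0.222 and 0.236), and *Pde5a* there was called at 0.54 and 0.21. A pseudocount of 1 also shrank differences of low genes between the white depots, which stayed called, *Prkg1* from 1.52 to 0.28, *Gucy1a3* from 1.97 to 1.26 and *Gucy1b3* from 1.92 to 1.19 (0.96, 1.79 and 1.70 with 0.1). Of all genes, limma with a pseudocount of 0.1 called 12752 as higher and 4402 as lower in iWAT adipocytes than in BAT, and 11972 and 5740 for eWAT adipocytes. Without the filter on reads, *Npr2* and *Pde5a* in iWAT adipocytes over BAT were 0.031 and 0.077, and with reads of overlapping rows taken off *Prkg1* was 0.011. In lane 2 alone, *Pde5a* between the white depots was 0.00037. Same-numbered samples did not deviate together (mean correlation -0.00498, -0.0137 and 0.0135, with 1, 0 and 0 pairs over 0.1), so numbers were not taken as pairs; with the number as a replicate block, 6, 4 and 5 of the 7 genes and 12836, 12486 and 15146 of all genes were called, against 13454, 14864 and 16561, and *Pde5a* in eWAT adipocytes over BAT was -0.11. In the 8 samples with a shared number, without the block, it was also -0.11, and *Npr2* in iWAT adipocytes over BAT was 0.017. A minimum log2 fold change of 1 left 4892, 7363 and 9830 of all genes and 6, 3 and 4 of the 7, with *Gucy1b3* in iWAT adipocytes over BAT (0.79) and *Gucy1a3* in eWAT adipocytes over BAT (-0.81) no longer called. Lane 1 alone, with fewer samples, left 7300. Without the 2 samples farthest from the median, r of the cyclase subunits was 0.974, 0.864 and -0.41, with too few samples left for a test. In eWAT adipocytes, 3 of the 7 genes reached 2 RPKM, 1 TMM-scaled RPKM or 1 RPKM in every sample, and in BAT 3 reached 2 RPKM. The cause of these changes was not tested.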
